A study of Mus musculus with 5 samples.

Results

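Neutrophils carry their antimicrobial proteins in granules that are filled in sequence while the cell matures, and 10 genes for such proteins were followed here in mouse kidney. They were Elane, Mpo, Prtn3 and Ctsg for primary granules, Camp, Ngp and Ltf for secondary granules, and Mmp8, Mmp9 and Retnlg for the tertiary, late-expressed group. The genes were taken by symbol, and all 10 were found, each under 1 identifier, among the 27998 genes of every library. Their counts were read in droplet barcodes that passed a neutrophil gate, which asks for at least 20 UMIs (unique molecular identifiers, each standing for 1 captured mRNA) of S100a8 and S100a9 together, or at least 5 UMIs of Elane, Mpo and Prtn3 together. The gate held 474 of 26237 barcodes, of which 463 passed by S100a8 and S100a9, the subunits of calprotectin that neutrophils hold in bulk, 25 passed by the primary granule genes and 11 by these alone.

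All libraries came from kidneys of C57BL/6j mice in which pristane, a hydrocarbon oil, had induced lupus-like disease, so that the controls carry the disease too. Saline was given to 2 mice (saline 1 and 2), and 3 mice (FMT 1 to 3) received a faecal microbiota transplant from MRL/MpJ donors, with 1 single-cell library per mouse. Age, sex, time and dose are not given in the sources used here. The labels name renal tubular epithelial cells, and the extraction text adds B cells, whereas gated barcodes carried S100a8 and S100a9 at a median of 14.2% to 23.4% of their UMIs, so the labelled cell type is not that of the gate. The sample codes begin with C or D in saline mice and with B in FMT mice, and a preparation batch that follows these codes cannot be told apart from the treatment.

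Primary (azurophil) granules are filled in promyelocytes, with serine proteases and myeloperoxidase. Secondary (specific) granules are filled in myelocytes and metamyelocytes, and gelatinase granules in band and segmented cells, so that the transcript set of a neutrophil tells roughly how far it has matured. Most of this happens in bone marrow, and neutrophils found in tissue are usually past the first steps. The transcription factor PU.1 binds DNA around the core GGAA, and C/EBP factors, among them C/EBP epsilon, which is needed for secondary granules, bind a palindrome of TT and AA.

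In the GRCm38 build, annotated with GENCODE M21, Prtn3 (ENSMUSG00000057729, chr10:79874476-79883174) and Elane (ENSMUSG00000020125, chr10:79886247-79888215) lie on the plus strand of chromosome 10, separated by 3073 bases. Ctsg (ENSMUSG00000040314) lies at chr14:56099881-56102574 on the minus strand and Mpo (ENSMUSG00000009350) at chr11:87793581-87804413 on the plus strand. Camp (ENSMUSG00000038357, chr9:109847379-109849617), Ngp (ENSMUSG00000032484, chr9:110419747-110423012) and Ltf (ENSMUSG00000032496, chr9:111019271-111042767) lie within 1195388 bases of chromosome 9. Mmp8 (ENSMUSG00000005800, chr9:7558456-7568485) is far from these on the same chromosome, while Mmp9 (ENSMUSG00000017737) is at chr2:164940780-164955850 and Retnlg (ENSMUSG00000022651) at chr16:48872621-48874496.

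The promoters are shown because the results are given by granule type. The 250 bases upstream of their RefSeq starts (GRCm38.p6) were searched on both strands for AGGAAGT, a form of the PU.1 site, and for TTNNGNAA, a form of the C/EBP site. RefSeq promoters were matched for 9 of the 10 genes, Mmp9 being the exception. AGGAAGT was found in 4 of 4 primary, 0 of 3 secondary and 1 of 2 tertiary promoters, against 7.69% of 32851 mouse promoters. TTNNGNAA was found in 0 of 4, 2 of 3 and 2 of 2, against 36.8% of those promoters. No match of either motif overlapped a match of the other, and a match describes letters, not binding. The stretches that hold AGGAAGT in the primary genes, and 2 of the 3 matches of TTNNGNAA in Ngp and 1 of the 2 in Ltf, are shown 5′ to 3′ on the strand of the gene, outside annotated exons, with the motif or its reverse complement in capitals. They lie at chr10:79886188-79886246 (Elane), chr10:79879533-79879613 (Prtn3), chr11:87793534-87793580 (Mpo), chr14:56102734-56102820 on the minus strand (Ctsg), chr9:110419630-110419746 (Ngp) and chr9:111019177-111019264 (Ltf).
Elane: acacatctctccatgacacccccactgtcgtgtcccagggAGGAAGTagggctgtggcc
Prtn3: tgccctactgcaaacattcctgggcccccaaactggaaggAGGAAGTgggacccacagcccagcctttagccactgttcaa
Mpo: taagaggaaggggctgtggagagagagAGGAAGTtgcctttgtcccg
Ctsg: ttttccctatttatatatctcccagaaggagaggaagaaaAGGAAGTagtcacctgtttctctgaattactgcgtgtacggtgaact
Ngp: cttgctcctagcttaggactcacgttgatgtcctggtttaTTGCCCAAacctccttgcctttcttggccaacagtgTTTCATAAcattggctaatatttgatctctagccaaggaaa
Ltf: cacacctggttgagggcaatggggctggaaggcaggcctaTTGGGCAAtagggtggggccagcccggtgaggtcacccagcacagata

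The libraries held 15333445 to 45309178 UMIs. The gate took 142 of 5877 barcodes in saline 1, 93 of 4338 in saline 2, 45 of 7003 in FMT 1, 62 of 5593 in FMT 2 and 132 of 3426 in FMT 3, with medians of 2545.5 to 3548 UMIs per gated barcode. Mean shares of barcodes in the gate were 2.28% ± 0.193 for saline (SD, n = 2) and 1.87% ± 1.73 for FMT (SD, n = 3). FMT 3 had the highest share of all mice, 3.85%, and FMT 1 the lowest, 0.643% (two-sided exact permutation p = 0.9, where 0.1 is the smallest that 2 against 3 mice allow). The gate cut few borderline barcodes, since 7 had 15 to 19 UMIs of S100a8 and S100a9 and 4 had 20 to 24. No gated barcode was shared between libraries, and 3 to 12 barcodes of all kinds were shared per pair. The barcodes with the highest Scrublet scores, in a number set by library size, were marked as likely doublets. They included 24 gated barcodes (6 and 3 in saline 1 and 2, and 6, 6 and 3 in FMT 1 to 3), which were kept.

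Gated barcodes were sorted by a simple rule on UMIs, in the order in which the granule types are filled. A barcode was of the primary stage with at least 5 UMIs of the 4 primary genes, otherwise secondary with at least 5 UMIs of Camp, Ngp and Ltf, otherwise tertiary with at least 5 UMIs of Mmp8, Mmp9 and Retnlg, and otherwise low granule. The gated barcodes were 25 primary, 98 secondary, 320 tertiary and 31 low granule, so the tertiary stage held most of them. A stage cut from UMIs is a range and not a cell type. Few barcodes sat at the cuts: 3 had 5 to 7 secondary UMIs and 6 had 3 or 4, while 15 had 5 to 7 tertiary UMIs and 12 had 3 or 4. Median depth also differed between stages, from 13047 UMIs in the primary and 4612.5 in the secondary to 2574.5 in the tertiary stage.

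The order of stages was accompanied by genes that the rule did not use. Values of the primary stage cover all its 25 barcodes. Of these, 14 had under 5 UMIs of Mpo and Ctsg and under 5 secondary UMIs, and mostly carried monocyte markers, as described below. Lcn2 (lipocalin 2, a secondary granule protein that binds siderophores) stood at 2948 CPM (counts scaled to a common total of UMIs) in the primary, 18202 in the secondary and 2026 in the tertiary stage. Cebpe, the gene of C/EBP epsilon, stood at 195 CPM in the primary, 407 in the secondary and 13.3 in the tertiary stage. In the secondary stage it ranged from 143 CPM in FMT 1 to 656 in FMT 2, and in the tertiary stage from 0 in saline 2 to 55.9 in FMT 1, so the mice did not overlap between these stages. Cebpb, the C/EBP factor of mature and emergency granulopoiesis, ran the other way, with 363 CPM in the secondary and 1687 in the tertiary stage. Csf3r, the receptor of the neutrophil growth factor G-CSF, stood at 48.9, 168 and 1630 CPM, and Cxcr2, the receptor with which mature neutrophils follow chemokines out of marrow, at 6.98, 197 and 792 CPM in the same order. Il1b, a cytokine made by activated neutrophils, was at 167 CPM in the secondary and 4219 in the tertiary stage, with 301 of 320 tertiary barcodes holding a UMI.

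Lists of genes followed the stages in part. The 19 late neutrophil genes took 0.555% of UMIs in barcodes with both primary and secondary transcripts, 1.97% in the secondary and 6.95% in the tertiary stage. The 12 proliferation genes took 0.676% in the first of these, and the secondary and tertiary stages had no common order, with 0.198% and 0.159% over all mice but 0.0808% and 0.178% in FMT 1 and 0.117% and 0.158% in FMT 3. Primary granule and promyelocyte genes other than the members did not run with the stages, at 0.374% in the primary, 0.188% in the secondary and 0.494% in the tertiary stage. The primary value pools unlike barcodes. Those with 5 or more Mpo and Ctsg UMIs and under 5 secondary UMIs had 0.752% (0.778% in saline 1 and 0.0861% in saline 2). Those with 5 or more secondary UMIs had 0.355%, and the remaining 14 had 0.191%. In the tertiary stage the late genes took 7.04% and 5.55% of UMIs in saline 1 and 2 and 7.47%, 5.94% and 8.17% in FMT 1 to 3, all above any secondary-stage value, which ran from 1.48% to 2.79%. These are descriptions of barcodes from the same libraries, and no test was made of them.

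**Figure D1:**
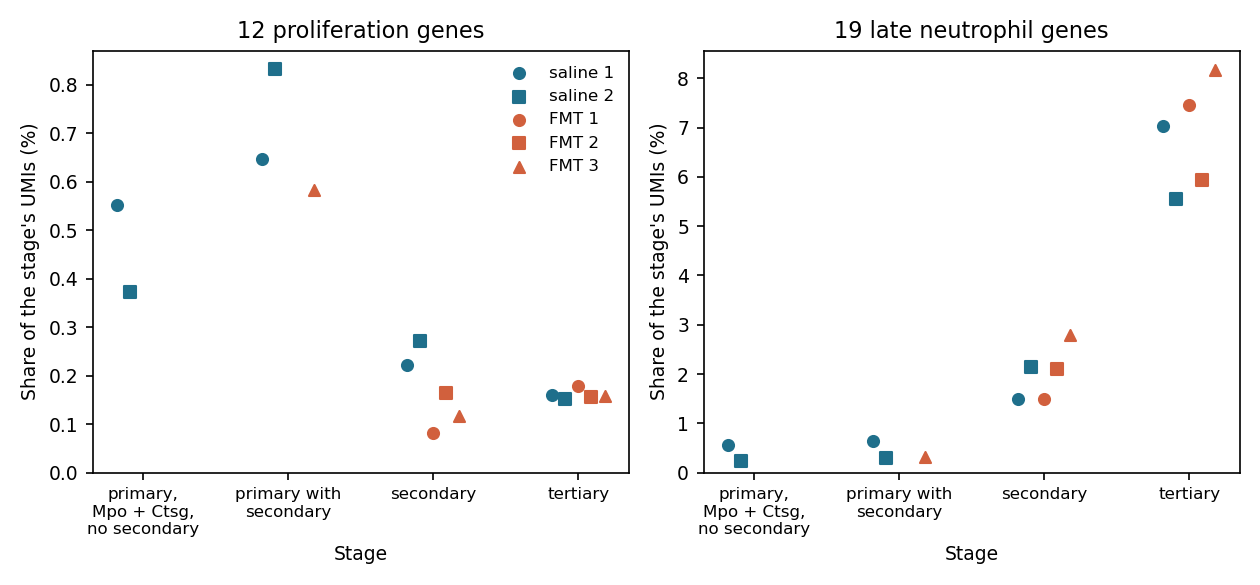
Share of UMIs (%) taken by 12 proliferation genes (left) and 19 late neutrophil genes (right) in 4 stages, 1 point per mouse and no error bars. The primary stage is shown by its barcodes with 5 or more Mpo and Ctsg UMIs but under 5 secondary UMIs, and by those with 5 or more secondary UMIs. Late gene shares ran from 1.48% to 2.79% in the secondary and from 5.55% to 8.17% in the tertiary stage.

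Secondary granule stages were a larger part of the gate in saline than in FMT mice. The secondary stage held 34 of 142 gated barcodes in saline 1 (23.9%, exact 95% interval 17.2 to 31.8), 34 of 93 in saline 2 (36.6%, 26.8 to 47.2), 4 of 45 in FMT 1 (8.89%, 2.48 to 21.2), 9 of 62 in FMT 2 (14.5%, 6.86 to 25.8) and 17 of 132 in FMT 3 (12.9%, 7.68 to 19.8). Both saline mice lay above all FMT mice, with 30.3% ± 8.92 (SD, n = 2) against 12.1% ± 2.89 (SD, n = 3). The difference was −18.2 percentage points (two-sided exact permutation p = 0.1, the smallest possible here), and −11.8 points without saline 2. The intervals cover counting error only.

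Tertiary stages showed the reverse. They held 85 of 142 gated barcodes in saline 1 (59.9%), 50 of 93 in saline 2 (53.8%), 37 of 45 in FMT 1 (82.2%), 45 of 62 in FMT 2 (72.6%) and 103 of 132 in FMT 3 (78.0%). Both saline mice lay below all FMT mice, with 56.8% ± 4.31 (SD, n = 2) against 77.6% ± 4.83 (SD, n = 3), a difference of 20.8 points (two-sided exact permutation p = 0.1, again the smallest possible). With each gated barcode thinned to 500 UMIs, which removed no barcode, the secondary stage held 28.5% ± 5.38 against 7.28% ± 4.62 and the tertiary stage 40.1% ± 8.04 against 64.6% ± 5.74, without overlap. These are shares of a whole, so more barcodes of 1 stage mean fewer of another, and they depend on which cells entered the droplets. The low granule stage held 6.89% ± 5.19 against 6.54% ± 5.62.

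**Figure D2:**
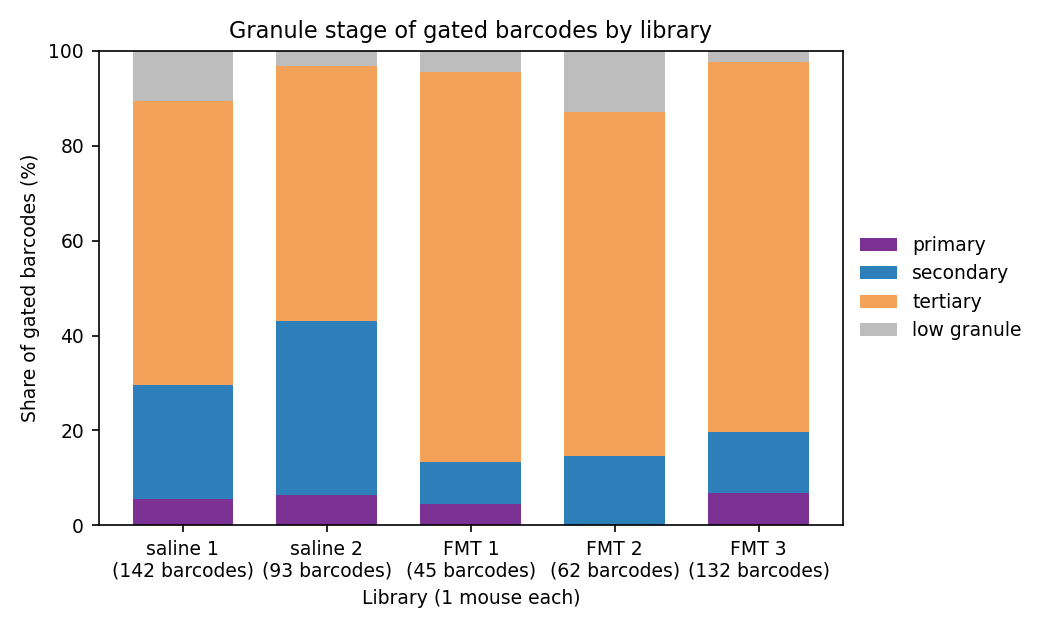
Stacked shares of gated barcodes (%) in the primary, secondary, tertiary and low granule stage, 1 bar per mouse, with the number of gated barcodes under each bar. The secondary band takes 23.9% and 36.6% of the saline bars and 8.89% to 14.5% of the FMT bars.

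The composition of granule transcripts was also apart. Of all UMIs of the 10 genes in gated barcodes, the secondary genes gave 78.3% in saline 1 and 71.3% in saline 2, against 49.8%, 56.9% and 60.8% in FMT 1 to 3. Secondary UMIs outnumbered tertiary UMIs 5.79 to 1 in saline 1 and 2.70 to 1 in saline 2, and the ratio was 1.00, 1.32 and 1.57 in FMT 1 to 3. Primary genes gave 8.18% and 2.26% in saline mice and at most 0.383% in FMT mice. A single barcode gave 6.85% of the granule UMIs of saline 1, 16.6% of saline 2, 47.1% of FMT 1, 35.3% of FMT 2 and 12.2% of FMT 3.

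Most UMIs of the primary granule genes came from saline mice, and most of those from saline 1. Elane, which encodes neutrophil elastase, had 850 UMIs in saline 1 and 148 in saline 2 over all barcodes, against 0, 0 and 12 in FMT 1 to 3. Mpo, the peroxidase that makes hypochlorous acid, had 549 and 46 UMIs against 0, 1 and 2. Ctsg, cathepsin G, had 793 and 10 UMIs against 1, 0 and 3. Saline mice lay above all FMT mice for each of these genes, and saline 1 far above saline 2. Prtn3, proteinase 3, had 1605 and 181 UMIs against 33, 18 and 85, with the same order but with counts in every mouse.

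Per UMI of the groups, saline exceeded FMT 152-fold for Elane (95% interval 86.7 to 296), 363-fold for Mpo (124 to 1765), 367-fold for Ctsg (143 to 1351) and 24.0-fold for Prtn3 (20.2 to 28.8), where the intervals cover counting error only and not the spread between mice. Saline 1 carried much of these folds, which were 47.7 for Elane (26.5 to 94.5), 59.3 for Mpo (19.1 to 298), 9.68 for Ctsg (2.79 to 42.3) and 5.15 for Prtn3 (4.10 to 6.48) with saline 2 alone against FMT. In edgeR's quasi-likelihood test on sums over whole libraries, which uses no gate, the log2 fold changes of FMT over saline were −6.96 ± 1.26 (SE) for Elane, −8.19 ± 1.34 for Mpo, −8.24 ± 1.88 for Ctsg and −4.10 ± 1.12 for Prtn3. Their Benjamini-Hochberg adjusted p-values in edgeR were 0.239, 0.236, 0.242 and 0.273, so none passed. That fit called 0 of 14341 genes (0%), although 2037 had an unadjusted p under 0.05 and DESeq2 called 413. Each of the 4 genes was without overlap and lower in FMT, as were 16.6% of all genes tested, but Elane, Mpo and Ctsg passed the count filter through the saline libraries, so nothing is read from that count. Bulk sums cannot tell fewer cells of a kind from less RNA per cell.

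These sums came from a handful of cells. In saline 1, 1 barcode held 424 of the 850 Elane UMIs (49.9%), and 1 barcode held 587 of the 793 Ctsg UMIs (74.0%). In saline 2, 1 barcode held 130 of the 148 Elane UMIs (87.8%). Without the top barcode of each library, the whole-library log2 fold change was −6.72 for Elane, −8.09 for Mpo and −3.99 for Prtn3, and Ctsg did not pass the count filter. Without saline 1 it was −5.24 for Elane, −5.63 for Mpo and −1.87 for Prtn3, and Ctsg again did not pass the filter. Within the gate Elane was found in 9 of 142 and 4 of 93 barcodes in saline mice and in 0 of 45, 0 of 62 and 2 of 132 in FMT mice. Outside the gate it was found in 4 of 14552 barcodes led by proximal tubule markers, or 0.0275%, at a median depth of 4966.5 UMIs.

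The 25 barcodes of the primary stage were of 3 kinds. The first, 7 barcodes with 5 or more secondary UMIs, held 358 Elane, 421 Prtn3 and 8877 Camp UMIs, and 0 Mmp8 UMIs. Of these, 5 were from saline 1, 1 from saline 2 and 1 from FMT 3, which passed with 5 Prtn3 UMIs and no Elane. The second was 4 barcodes with 5 or more UMIs of Mpo and Ctsg but under 5 secondary UMIs. These held 608 Elane, 512 Mpo, 1262 Prtn3 and 760 Ctsg UMIs, with 1 Camp UMI and 0 UMIs of the tertiary genes. They came from saline 1 (3 of 142 gated barcodes) and saline 2 (1 of 93), and FMT 1 to 3 had 0 of 45, 62 and 132. Barcodes of a mouse are not independent, so no bound on the share in FMT mice is drawn from these counts.

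The third kind was 14 barcodes with under 5 UMIs of Mpo and Ctsg and under 5 secondary UMIs. They had Prtn3 in all 14, Elane in 5 and Mmp8 in 10. Their UMIs of Camp, Ngp and Ltf, which the rule kept under 5, were 0. They came from saline 2 (4 barcodes), FMT 1 (2) and FMT 3 (8). Monocyte markers (Csf1r, Ly86, F13a1, Ms4a6c, Ccr2, Fn1, Ly6c2 and Ctss) took 0.280% to 1.13% of their UMIs and at least 0.4% in 13 of the 14. In the first and second kinds these markers took 0.0383% to 0.215% and 0.130% to 0.230%. Of the 11 primary stage barcodes of FMT mice, 10 were of the third kind.

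**Figure D3:**
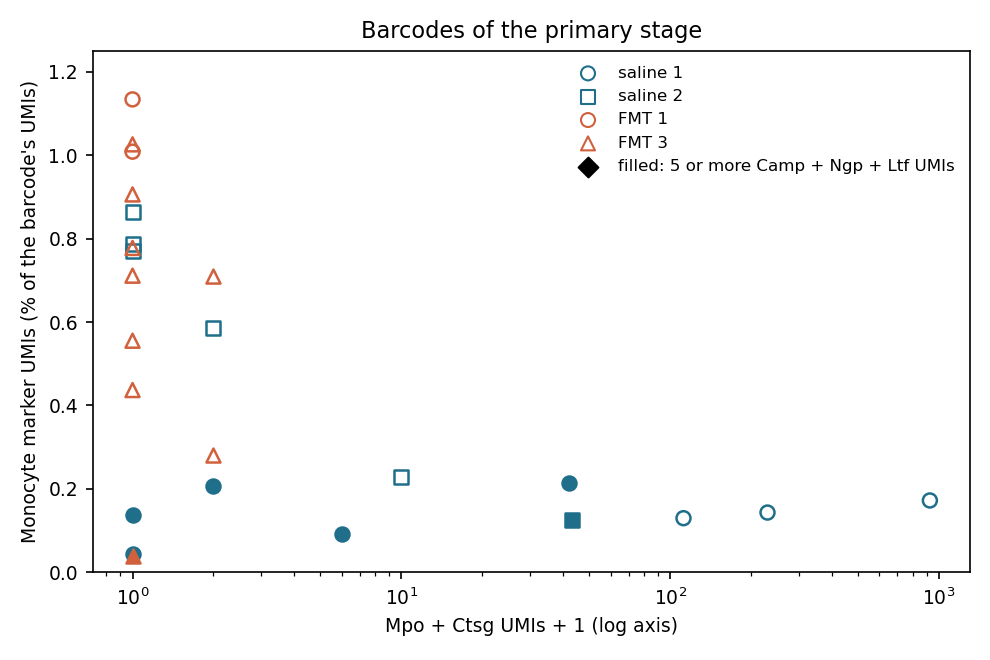
The 25 barcodes of the primary stage by their Mpo and Ctsg UMIs plus 1 (log axis) and by the share of their UMIs from 8 monocyte markers (%), with the mouse given by symbol and colour, and filled symbols for 5 or more UMIs of Camp, Ngp and Ltf. Barcodes with monocyte shares of 0.4% or more all have under 5 Mpo and Ctsg UMIs, and the 4 open symbols to the right are from saline mice.

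As a share of gated barcodes the primary stage was 5.63% and 6.45% in saline mice, against 4.44%, 0% and 6.82% in FMT mice, and the groups overlapped (two-sided exact permutation p = 0.6). Without the 19 gated barcodes with at least 0.4% monocyte marker UMIs, it was 4.0% ± 2.37 against 0.538% ± 0.931. That level was set after values were seen and takes away 13 of the 14 barcodes of the third kind, so the comparison is a description with no test. Over all gated barcodes the 8 monocyte markers took 0.0968% and 0.166% of UMIs in saline mice, against 0.179%, 0.0596% and 0.160% in FMT mice, and 7 of 8 were higher in FMT with 0 called. F13a1, Ccr2 and Fn1 were at 0 in FMT 2. Nkg7, a granule membrane gene kept here among lymphocyte markers, had 117 UMIs in the first and second kinds, where Cd3e, Cd3d, Cd3g, Lat and Klrb1c had 0.

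Camp, which encodes the cathelicidin peptide CRAMP, was found in 49 of 142 and 32 of 93 gated barcodes in saline mice (34.5% and 34.4%) and in 4 of 45, 9 of 62 and 16 of 132 in FMT mice (8.89%, 14.5% and 12.1%). The groups did not overlap. Ngp, a cathelicidin-related protein of mouse granules, was found in 36.6% and 45.2% of gated barcodes against 15.6%, 21.0% and 20.5%. Ltf, the iron-binding lactoferrin, was found in 25.4% and 33.3% against 4.44%, 11.3% and 9.09%. All 3 were detected more often in both saline mice than in any FMT mouse, and thinning to 500 UMIs left the groups apart (Camp 29.4% ± 3.77 against 8.84% ± 3.26, Ngp 33.4% ± 5.69 against 12.5% ± 3.55 and Ltf 24.9% ± 6.07 against 7.55% ± 3.47). Of all genes tested in the gate, 12.4% were likewise lower in every FMT mouse by detection and 10% by thinned detection.

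Camp was also counted outside the gate. Among barcodes led by proximal tubule markers, which should lack the gene, Camp was found in 7.03% in saline 1, 1.54% in saline 2, 0.111% in FMT 1, 0.269% in FMT 2 and 1.77% in FMT 3, at median depths of 4048 to 6147 UMIs. These shares lie below the gated share of the same mouse in all 5 mice, and gated barcodes had medians of 2545.5 to 3548 UMIs. The tubule-led share of saline 1 is near the gated share of FMT 1, 8.89%. What Camp RNA from other cells adds to the gated shares, or to their difference between groups, was not tested.

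The levels of the secondary genes were not called different between the groups by edgeR's adjusted p. Camp stood at 28668 and 11947 CPM of gated UMIs in saline 1 and 2 and at 6524, 10475 and 11181 CPM in FMT 1 to 3, with the FMT mice below both saline mice. The log2 fold change was −1.25 ± 0.469 (SE), with an adjusted p of 0.507 in edgeR, and −0.44 without saline 1. Ngp stood at 17622 and 10699 CPM against 6705, 8425 and 9146 CPM (log2 fold change −0.95 ± 0.398, adjusted p 0.598 in edgeR), and −0.50 without saline 1. Ltf stood at 2076 and 2004 CPM against 1145, 2009 and 1676 CPM, and the groups overlapped (−0.47 ± 0.355, adjusted p 0.779 in edgeR). In FMT 1, 1 barcode held 1332 of the 1376 Camp UMIs (96.8%).

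Barcodes with at least 100 secondary UMIs, 65 in all, were 21.8% and 19.4% of gated barcodes in saline mice, against 2.22%, 8.06% and 7.58% in FMT mice. They were split by their tertiary UMIs. Of the 65, 26 had under 5 tertiary UMIs, with 14 from saline 1, 11 from saline 2, 0 from FMT 1, 1 from FMT 2 and 0 from FMT 3. The other 39, with 17, 7, 1, 4 and 10 in the same order, had 5 or more. Depth differed with the split, at a median of 2365.5 UMIs in the 26 and 10387 in the 39, and its part in the split was not tested. In the 26, of which 6 are of the primary stage, Ltf stood at 3295 CPM and Elane at 1620 CPM, and proliferation genes took 0.571% of UMIs. In the 39, Ltf stood at 7214 CPM and Elane at 0, and proliferation genes took 0.207%. Secondary UMIs without tertiary or primary ones, at the cut of 5, were found in 9 and 22 barcodes in saline mice, against in 0, 1 and 0 in FMT mice. The secondary stage of saline 2 was shallow, with a median of 1602 UMIs against 4325 to 6397.5 in the other mice.

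**Figure D4:**
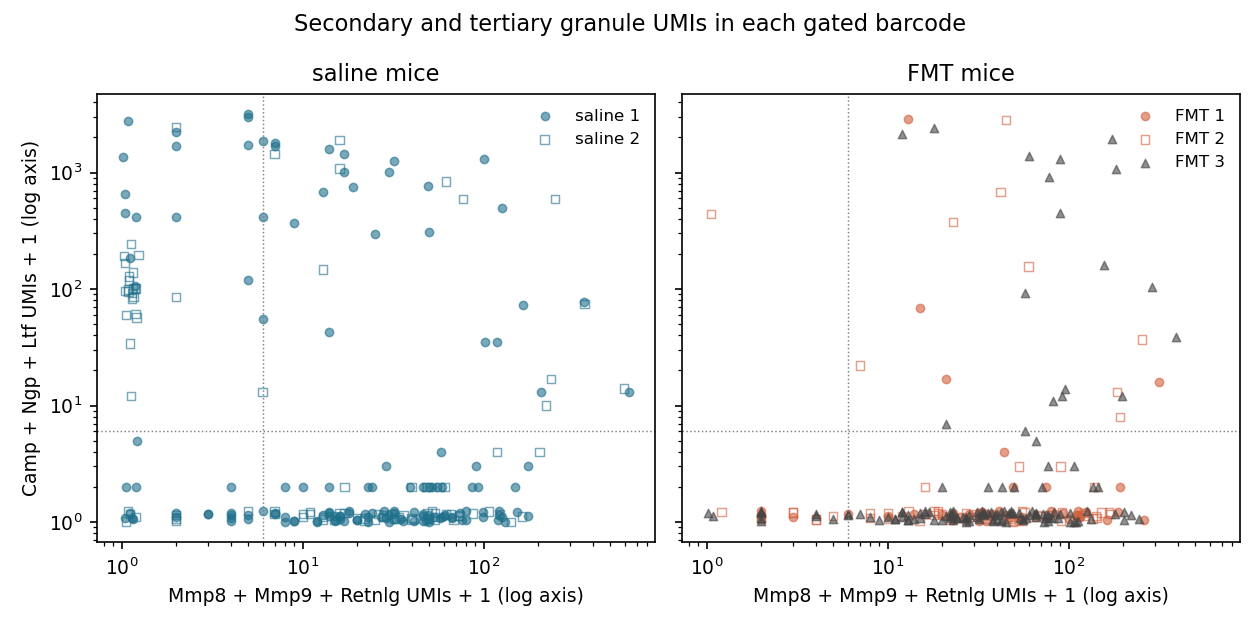
Each gated barcode by its UMIs of Mmp8, Mmp9 and Retnlg plus 1 and of Camp, Ngp and Ltf plus 1 (both log axes, barcodes at 0 spread slightly), saline mice left and FMT mice right, with dotted lines at the cut of 5 UMIs. The upper left field, with secondary but not tertiary UMIs past the cut, holds 31 barcodes of saline mice and 1 of FMT mice, and a further 6 barcodes of saline mice that are of the primary stage.

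Tertiary genes were detected in more gated barcodes of FMT mice. Retnlg, a secreted resistin-like protein of neutrophils, was found in 89.4% and 68.8% of gated barcodes in saline 1 and 2 and in 95.6%, 93.5% and 92.4% in FMT 1 to 3. Its level was 7445 and 7866 CPM against 12985, 13957 and 12336 CPM, with every FMT mouse above both saline mice. The log2 fold change was 0.63 ± 0.360 (SE), with an adjusted p of 0.706 in edgeR. Mmp9, gelatinase B, was found in 76.1% and 62.4% against 88.9%, 85.5% and 89.4% of gated barcodes, at 635 and 887 CPM against 1055, 1381 and 1204 CPM (0.54 ± 0.329, adjusted p 0.721 in edgeR). Mmp8, neutrophil collagenase, stood at 267 and 383 CPM against 339, 486 and 509 CPM, with overlap (0.34 ± 0.335, adjusted p 0.845 in edgeR). Thinned to 500 UMIs, Retnlg and Mmp9 stayed apart (64.9% ± 7.83 against 85.5% ± 3.14 and 34.5% ± 3.63 against 48.7% ± 0.653), and Mmp8 overlapped (14.1% ± 2.11 against 16.9% ± 2.53). Of all genes tested in the gate, 8.93% were higher in every FMT mouse by detection and 12.8% by thinned detection.

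**Figure D5:**
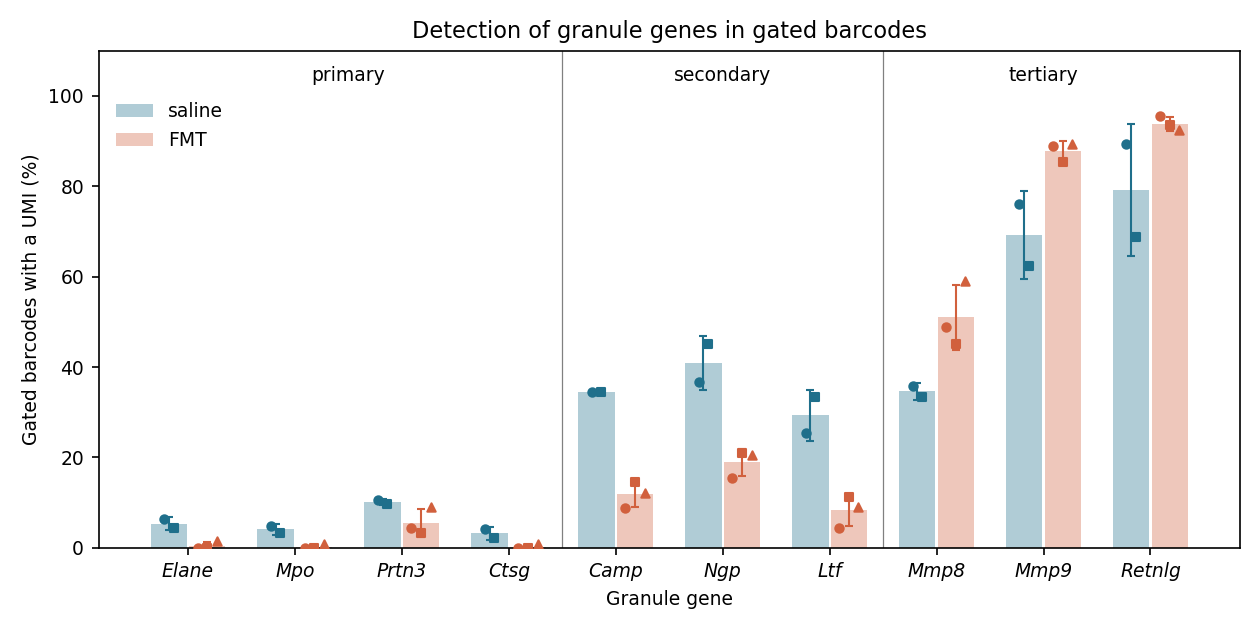
Share of gated barcodes with at least 1 UMI (%) for the 10 granule genes, with the mean of each group as a bar, its SD as an error bar (saline n = 2, FMT n = 3) and 1 point per mouse. Camp, Ngp and Ltf are lower in every FMT mouse than in both saline mice, and Mmp8, Mmp9 and Retnlg higher.

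In the gate, Camp and Ngp were without overlap and lower in FMT by CPM, beside 8.4% of all genes tested, and Mmp9 and Retnlg were without overlap and higher, beside 15.8%. Over whole libraries the tertiary genes were at log2 fold changes of 0.07 ± 0.838 (Mmp8), 0.07 ± 0.764 (Mmp9) and 0.17 ± 0.784 (Retnlg), with overlap, and Camp, Ngp and Ltf at −1.58 ± 1.02, −1.29 ± 0.925 and −0.86 ± 0.859, also with overlap. Within tertiary stage barcodes, 0 of 2592 genes (0%) were called by edgeR and 0 by DESeq2, with 191 at an unadjusted p under 0.05 in edgeR. There the 19 late neutrophil genes had a median log2 fold change of 0.05, with 14 higher in FMT and 0 called, beside −0.02 over all genes tested.

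Across the gate, the edgeR test called 14 of 4895 genes (0.286%), 2 higher and 12 lower in FMT (0.245% lower), and 372 had an unadjusted p under 0.05. Of the members, Elane and Mpo are among the 14, but the gate used both and Prtn3, so nothing is read from them. Ctsg did not pass the count filter, and the other 6 were not called. Of 12 proliferation genes, 12 were lower in FMT and 3 were called, with a median log2 fold change of −2.74 beside −0.02 over all genes. By CPM, 11 of them were without overlap and lower in FMT, beside 8.4% of all genes tested. Top2a, the topoisomerase of dividing cells, fell by 4.65 on the log2 scale (SE 0.669, adjusted p 0.0104 in edgeR), from 61.0 and 45 CPM to 0, 0 and 3.65 CPM. Stmn1, a microtubule regulator of mitosis, fell by 2.90 (SE 0.488, adjusted p 0.0316 in edgeR), from 358 and 143 CPM to 23.9, 18.3 and 54.7 CPM. Rrm2, a subunit of ribonucleotide reductase, had 51.5 and 47.1 CPM in saline mice and 0 in all FMT mice (adjusted p 0.0104 in edgeR). Top2a and Rrm2 passed the count filter through the saline libraries, so nothing is read from their calls or from the count without overlap.

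Primary stage barcodes held 57 of 68 Top2a UMIs (83.8%), 289 of 370 Stmn1 UMIs (78.1%) and 53 of 60 Rrm2 UMIs (88.3%). Without the top granule barcode of each library 0 genes were called, and 0 without FMT 1, 4 without FMT 3, 28 without FMT 2 and 31 without saline 2. The remaining lower calls were Hist1h2ap, Hist1h1b, Hist1h2ae and Hist1h1d, which are histone genes of near-identical families whose reads may be split, 2810417H13Rik, Dut, an enzyme of nucleotide supply, and Orm1, an acute phase protein. Of these, Hist1h1b, at 0 CPM in all FMT mice, and others near 0 there passed the count filter through the saline libraries. Orm1 stood at 142 and 111 CPM against 47.7, 22.9 and 27.4 CPM, with 27.3% of its UMIs in the primary stage. The 2 higher calls, G6pc and Cyp2d12, are genes of proximal tubule and liver. Proximal tubule markers moved with them, with 6 of 6 tested higher, 0 called and 0.267% and 0.280% of gated UMIs in saline mice against 0.676%, 0.749% and 0.307% in FMT mice. Kap was at 0 in saline 1, FMT 2 and FMT 3, and the part of tubule RNA in these results was not tested.

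Other lists of the granule pathway held 0 called genes. Of 9 further primary granule and promyelocyte genes tested, 5 were lower in FMT, with a median of −0.47 on the log2 scale, and Srgn, the proteoglycan that packs granule proteases, stood at 2238 ± 118 against 2850.1 ± 411 CPM (SD, n = 2 and 3). Of 12 further secondary granule and myelocyte genes tested, 10 were lower, with a median of −0.33, and Lcn2 stood at 7035 ± 903 against 6325 ± 1322 CPM. Of 8 further tertiary granule and secretory vesicle genes tested, 6 were higher, with a median of 0.42, and Ctsd, a lysosomal protease, stood at 337 ± 172 against 577 ± 224 CPM. Of 19 late neutrophil genes, 17 were higher, with a median of 0.57, and Fth1, the ferritin heavy chain, stood at 4494 ± 555 against 7467 ± 668 CPM. Of the 19, 13 were higher without overlap, beside 15.8% of all genes tested in the gate. Within the tertiary stage 3 of them were higher and 2 lower without overlap. The share over all genes was not counted there, so nothing is read from these counts. Of 7 granulocyte transcription factors tested, 5 were higher, with a median of 0.14, while Cebpe stood at 219 ± 34.8 against 102 ± 47.7 CPM (log2 fold change −1.28 ± 0.348, adjusted p 0.288 in edgeR). Erythroid markers were lower in FMT in 4 of 4 tested, with 0.521% and 0.0133% of gated UMIs in saline mice, against 0%, 0.0133% and 0.192% in FMT mice.

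Genes most like each granule group were sought as those with the highest mean, over the 5 mice, of the correlation across gated barcodes with the summed log-scaled level of the group. Barcodes of a library share its depth and preparation, and genes of a stage share its depth, so the values are descriptions. Secondary genes ran most closely with Adpgk (mean Pearson r = 0.79, a glucokinase that uses ADP), Serpinb1a (0.72, an inhibitor of elastase, cathepsin G and proteinase 3), Chil3 (0.71, a chitinase-like lectin), Cd177 (0.70, a neutrophil surface protein) and Itgb2l (0.70, an integrin beta subunit relative). Tertiary genes ran with S100a11 (0.68), Grina (0.62), S100a9 (0.56), Ccl6 (0.56) and Csf3r (0.53). S100a9 helped to choose the barcodes, so nothing is read from its value. With S100a8 it took a median of 33.5% of UMIs in secondary and 17.4% in tertiary stage barcodes. For primary genes the highest were H2-DMa (0.50), F10 (0.46), Bri3bp (0.46), Plac8 (0.45) and Ssr2 (0.45), and these varied widely, H2-DMa from 0.07 in saline 1 to 0.74 in FMT 1. In FMT 1 the primary UMIs of the gate were in 2 barcodes, both of the third kind, and in FMT 2 there were 2 such UMIs in 2 barcodes, so the means for primary genes rest on little signal in these mice.

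Outside the gate, Prtn3, Mmp8 and Mmp9 were detected at different shares in barcodes led by different marker lists. Prtn3 was found in 4.71% and Mmp8 in 4.85% of the 680 barcodes led by monocyte markers, against 0.103% and 0.0618% of 14552 barcodes led by proximal tubule markers, at median depths of 3986 and 4966.5 UMIs. Monocyte-led barcodes held 51 of the 91 Prtn3 UMIs and 55 of the 78 Mmp8 UMIs outside the gate. By mouse, Prtn3 was found in 1.33% and 9.09% of them in saline 1 and 2 and in 6.67%, 8.42% and 13% in FMT 1 to 3, and Mmp8 in 1.33% and 7.58% against 11.1%, 4.21% and 16.7%. Mmp9 was found in 3.31% of 2357 barcodes led by T and NK cell markers and held 108 of its 193 outside UMIs there, against 0.294% of monocyte-led and 0.186% of tubule-led barcodes. Per mouse the share in T and NK cell-led barcodes was 3.29%, 5.54%, 1.89%, 4.58% and 1.10%. Camp, Ngp and Retnlg were each found in 1.02% to 5.0% of the barcodes led by each of these lists.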

How the data were processed

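Droplet single-cell libraries of kidney cells from 5 mice were used, 2 given saline and 3 given FMT. The deposited matrices hold raw UMI counts per gene and barcode. Per the submitters' processing notes, Cell Ranger 2.1.1 was run against mm10. Per the file headers, the version was 4.0.0, and which of these made the counts is not settled. Counting strand and filters are not given in the sources used here.

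The members, lists, gate, stage rule and tests were chosen with earlier results of these data known. Genes named by stage, and alternatives on the S100a8 and S100a9 gate alone, monocyte marker barcodes and top barcodes, were chosen after values were seen. Otherwise named genes were the members and, per list, up to 4 called genes or else up to 2 of highest CPM, and the 5 genes most like each group (mean r of at least 0.3, detected in at least 5% of gated barcodes). Cebpe and Orm1 were added after values were seen. Acod1 and Itgam were not analysed here, because no single identifier matched them.

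UMIs of a set of barcodes were added up within each library, since barcodes of a mouse are not independent. The sums were tested by quasi-likelihood in edgeR 4.0.16 under R 4.3.3, after TMM and filterByExpr, and p-values were adjusted by Benjamini-Hochberg over every gene tested (threshold 0.05). Shares of barcodes were compared with two-sided exact permutation tests, and thinning used 500 UMIs per barcode. The secondary stage was not tested across genes, since each FMT library had under 20 such barcodes (4, 9 and 17). DESeq2 1.42.0 was an alternative. Python 3.11.15, scipy 1.17.1 and scanpy 1.11.5 (Scrublet) were used. The edgeR step was tested on simulated data. Barcodes outside the gate were assigned to the marker list with most UMIs, if at least 10. Each mouse gave 1 library, and chi-square values of 67.2 or more per gene in every pair showed no library deposited again. Intervals cover counting error only.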

Additional observations from a re-analysis of the deposited data

How the results depend on the processing

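The share differences of the secondary and tertiary stages kept their direction under all 16 alternatives each, from −24.5 to −11.8 and from 17.8 to 24.5 percentage points. In 1 of these, likely doublets and barcodes with under 200 genes or at least 50% mitochondrial UMIs were left out. The secondary stage then held 31.0% ± 9.46 in saline against 10.6% ± 7.13 in FMT mice (SD, n = 2 and 3). The gated log2 fold changes of Camp, Ngp, Ltf, Mmp8, Mmp9 and Retnlg kept their direction and stayed uncalled in 18 alternatives each. The gate share ran from −1.40 to 0.201 points with a mouse left out, the last without FMT 1, and the primary stage share turned to 1.02 points higher without barcodes of other cell types. That setting removes 7 of the 10 saline barcodes of the first and second primary kinds, through Nkg7.

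Calls were less stable. In the gate the 14 calls became 8 without TMM, 113 without the low count filter, 30 with a gate of 2% S100a8 and S100a9, 0 without barcodes of other cell types, 39 without monocyte marker barcodes, 0 without the top barcode of each library, and 0 to 31 with a mouse left out. Over whole libraries the 0 calls became 413 with DESeq2, 8 without the filter and 0 to 98 with a mouse left out, when 1 saline mouse was assumed to vary like the others. In the tertiary stage the 0 became 48 without the filter and 0 to 23 with a mouse left out.

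Over whole libraries the log2 fold changes of Mmp8, Mmp9 and Retnlg ran from −1.41 to 0.55, −1.18 to 0.54 and −1.19 to 0.62 with a mouse left out, the lowest without FMT 3. Mmp8 was −0.0045 without TMM and Retnlg −0.011 without saline 2. Over whole libraries Elane passed the threshold with the replicate number as a block. Mpo passed with DESeq2 and without the low count filter, and Ctsg with DESeq2 and with the block. In the main fit these genes passed the count filter through the saline libraries, so nothing is read from these passes. Without saline 2 the log2 fold changes were −7.72 for Elane, −9.06 for Mpo and −9.22 for Ctsg. Ctsg gave no value without saline 1 or without top barcodes, since it did not pass the count filter there.

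Mice with the same replicate number did not deviate together from their group means (r = −0.104 and −0.0644 in the gate). With 2 saline mice such deviations are mirror images, and FMT 3 has no partner, so whether the numbers pair the mice cannot be decided from these values. With the replicate number as a block, calls were 2 in the gate, 4 over whole libraries and 53 in the tertiary stage, and Mmp8, Mmp9 and Retnlg over whole libraries were −1.43, −1.26 and −1.22. The causes of these shifts were not tested. The primary genes are limited by the number of barcodes, 11 of the first and second kinds, and 2 against 3 mice cannot give an exact p under 0.1.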
